A study of Homo sapiens with 9 samples.

Results

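The comparison set A549 cells kept for 5 days on low-attachment plates (3 arrays, replicates 1 to 3) against A549 cells kept for 5 days on plates to which they attach (2 arrays, replicates 2 and 3), both in normal medium. It used 5 of the 9 arrays of the series and was described over the 10916 genes, of 14884 named, whose brightest probe set reached its array's median on at least 3 of 8 arrays. A549 is an established human line from a lung adenocarcinoma that grows as a sheet on plastic. Both groups were kept in multi-well plates in DMEM with FBS to which Milli-Q water had been added, and neither received another agent. Another group of 3 arrays, on low-attachment plates with 0.015% (w/v) of an additive known here by its code FP001, entered the estimate of the spread and is shown beside the comparison. Attachment replicate 1 was left out by the rule that chose the arrays, as its values follow none of the rest, with rank correlations of at most −0.0019. Whether replicates were separate cultures is not in the labels, so a p-value here reads the spread among these arrays alone, which may be technical. With 2 arrays against 3, their number limits the precision.

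All values below are intensities as deposited, which are linear, with 1 value for a probe set on an array. Fold changes come from limma on log2 intensities, with the standard error (SE) after ±. A gene is called where its Benjamini-Hochberg adjusted p over the 10916 genes was under 0.05, and "rose" and "fell" are used of called genes only. Intensities of different genes are not compared, since a probe set's brightness is not a number of molecules. The labelling protocol in the labels is one for the 3′ ends of transcripts, while the arrays also carry microRNA and other small RNA genes, so which stretch of a transcript was read cannot be said.

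The labelled cell line was checked against its markers. KRT18, a keratin of simple epithelia, read 3478 and 3705 on the attachment arrays and 3763, 3770.5 and 3640.1 on the low-attachment arrays. All 9 named markers of A549 were at or above the array median often enough to be tested, and their summed intensity was 8560 to 10200 on attachment and 10200 to 11100 on low-attachment arrays. The sums include SLPI and GPX2, the 2 of the list that were called, both higher. SLPI read 284 and 228 against 1204, 1175 and 958, and GPX2 757 and 600 against 971, 920 and 897. The sums thus partly follow genes that changed, and brighter probe sets weigh more in them. The median log2 fold change of the 9 was 0.05. Of 9 named leukocyte markers 8 were tested, with sums of 591 to 658 on attachment and 778 to 1020 on low-attachment arrays. LYZ and CD22 of that list rose. All 8 tested had positive log2 fold changes, with a median of 0.25, against 0.01 over all genes. CD68, with the highest values of the list, read 321 and 286 against 511, 356 and 393 and was not called. LYZ passed the filter only through plates where it was high, as given below. CD163, a macrophage receptor, stayed under the median of all 5 arrays. Of 8 named markers of fibroblasts and endothelial cells 4 were tested, with sums of 245 to 290 and 221 to 464, and DCN, the fibroblast proteoglycan decorin, read between 3.32 and 3.91 on all 5 arrays. LUM, another such proteoglycan, read 93.3 and 28.2 against 247, 24.01 and 41.5, so the highest sum is that of low-attachment replicate 1. THY1, a surface glycoprotein of fibroblasts, fell, from 73.0 and 78.1 to 62.2, 52.5 and 52.0 (adjusted p = 0.029). Calls failed more often for THY1 (6 of 18 alternatives, adjusted p up to 0.157 without attachment replicate 3). The part of other cells in the results was not tested.

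Cells that grow on a surface hold it through integrins, which gather talin, vinculin and tensins into focal adhesions on the inner side of the membrane and tie them to actin filaments. These contacts pass signals on to the ERK kinases, which switch on immediate early genes such as FOS and EGR1, and to the actin-sensing factors SRF and YAP. On a surface that cells cannot grip, such contacts are few, and epithelial cells gather into floating clumps where they touch each other instead. Carcinoma lines such as A549 can survive this loss of anchorage, which kills many normal epithelial cells.

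On the low-attachment plates 13 of 24 surface and mucosal genes were called, all higher. Calls were lower for 10 of 19 p53 targets, 8 of 19 amino acid response genes, 4 of 8 SNAR RNAs and 3 of 12 focal adhesion genes, with 0 higher. They were also lower for 8 of 22 immediate early and 5 of 14 structural matrix genes, with 1 higher in each. Lists were chosen with earlier results of these data known, so these counts are a description. In all, 1100 of 10916 genes were called (10.1%), 471 higher (4.31%) and 629 lower (5.76%). Quantile normalization gave 612 higher and 512 lower, so the share of calls that were higher was 54.4% there and 42.8% in the values used here. Of these, 66 rose (0.605%) and 65 fell (0.595%) at least 2-fold. For all 1100 the arrays of the 2 groups did not overlap, which held for 4974 of all genes (45.6%; 22.2% with low attachment higher and 23.4% with it lower), called or not. The 2 attachment arrays differed by a median of 0.134 log2 units per gene, and the median SD over the low-attachment arrays was 0.113. Rank correlations were 0.984 between the attachment arrays, 0.985 between low-attachment arrays and 0.975 to 0.981 across the groups. Taking the 8 fits that each leave out 1 array, 210 genes (1.92%) were called in every one. Leaving out attachment replicate 2 lowered the count to 359 and leaving out attachment replicate 3 to 452, and it lay between 721 and 739 without 1 of the low-attachment arrays. With attachment replicate 1 included limma called 0 genes, with 190 at an unadjusted p under 0.05, and the median of all genes then moved by 0.71 log2 units. The largest positive difference of all, in the carboxylesterase gene CES1 (named after its values were seen), was not called: it read 39.7 and 155 against 189, 1093 and 973, and its log2 fold change was 2.90 ± 0.92 (adjusted p = 0.0715). It was called, at 3.71, without low-attachment replicate 1 (adjusted p = 0.022), without FP001 replicate 1 (adjusted p = 0.0278), and at 3.75 with a replicate block (adjusted p = 5.51e-05).

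**Figure D1:**
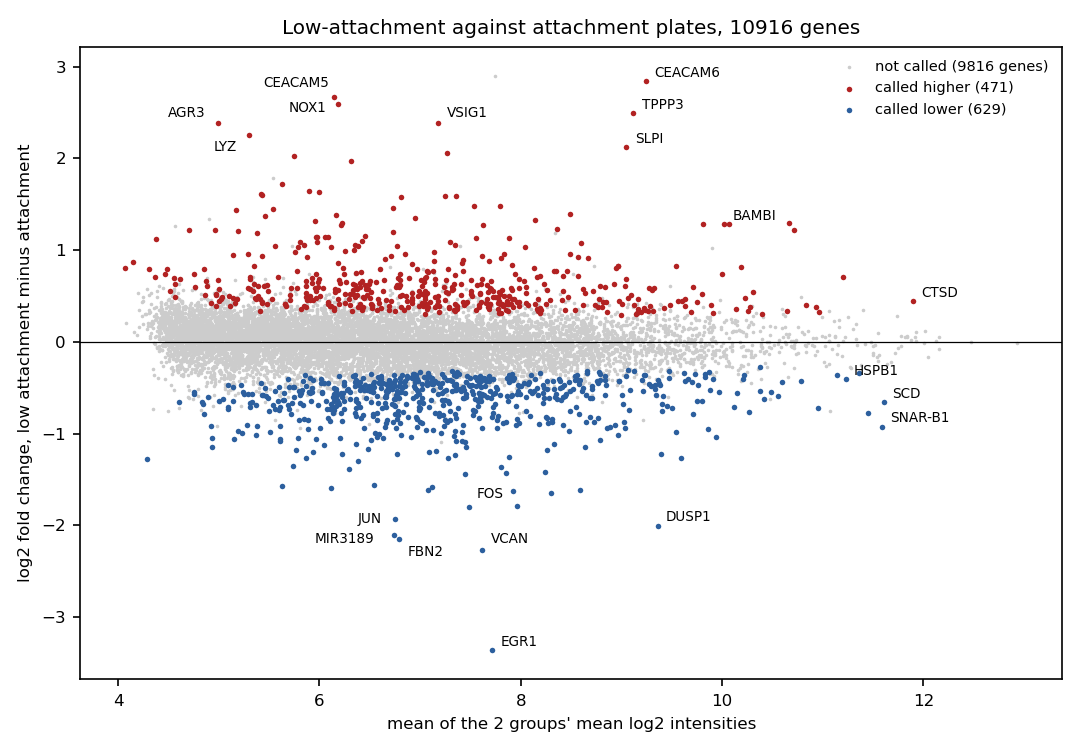
Each point is 1 of 10916 genes, with the mean of the groups' mean log2 intensities on the horizontal axis and the log2 fold change of low attachment against attachment on the vertical axis. Red points are the 471 genes called higher, blue points the 629 called lower and grey points the 9816 not called. EGR1 lies lowest, at −3.36, and CEACAM6 is the highest called gene, at 2.84.

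Several of the largest rises were of genes of the mucosal epithelial surface. The list of 42 surface, mucus and secreted defence genes had 26 named on the array, and 13 of the 24 tested were called, all of them higher, against 10.1% of all genes called in either direction. The median log2 fold change of the 24 was 0.80, against 0.01 over all genes. The list was chosen with earlier results of these data known, so its share and median are a description and no support. VSIG1, an adhesion protein of gastric epithelium, read 76.8 and 52.5 on the attachment arrays and 384, 286 and 330.4 on the low-attachment arrays. Its log2 fold change was 2.38 ± 0.17 (adjusted p = 7.11e-05). SLPI, a secreted inhibitor of neutrophil proteases, read 284 and 228 against 1204, 1175 and 958. Both genes were several-fold higher on each low-attachment array than on either attachment array, and SLPI rose by 2.12 ± 0.18 (adjusted p = 0.000204).

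CEACAM6 and CEACAM5 are adhesion proteins of the carcinoembryonic antigen family, anchored in the outer membrane by a lipid. CEACAM6 read 376 and 137 on attachment and 3343, 903 and 1432 on low-attachment arrays, and CEACAM5 read 42.0 and 18.9 against 424, 107 and 126. In each the attachment arrays differed more than 2-fold from one another and low-attachment replicate 1 stood well above replicates 2 and 3. The family's members are alike in sequence, and how far a probe set tells them apart was not tested.

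Among the secreted products, LYZ, the enzyme lysozyme that cuts bacterial walls, read 18.6 and 17.5 against 133, 61.5 and 78.0 and rose by 2.26 ± 0.36 (adjusted p = 0.00414). FCGBP, a large mucus protein that binds the Fc part of antibodies, read 98.4 and 58.1 against 445, 329 and 214. TFF1, a small trefoil peptide secreted with mucus, read 64.5 and 65.2 against 262, 153 and 182 and rose 2.99-fold (adjusted p = 0.00414). TSPAN8, a membrane tetraspanin, read 27.4 and 27.2 against 134, 61.7 and 88.4. The medians of the attachment arrays were 23.3 and 23.7, so LYZ lay under them there and TSPAN8 just above. AGR3, a relative of the disulphide isomerases of secretory cells, was also under them, at 18.6 and 10.4 and read 151, 53.2 and 48.0 on low-attachment plates. LYZ and AGR3 reached the median on 6 arrays, those of the low-attachment plates with and without FP001. Both passed the filter only through plates where they were high, so their calls support nothing, though the count of 13 includes them. SPDEF, a transcription factor of secretory cells, and AGR2, which helps mucins fold, were named after their values were seen. SPDEF read 436 and 321 against 757, 577 and 636 and AGR2 211 and 172 against 413, 275 and 285.

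Low-attachment replicate 1 was the highest of its group for 20 of the 24 genes, against 34.3% of all genes tested. The list's median was 0.56 without that array and 0.61 without attachment replicate 3, and 6 of the 13 rises were called in every fit without 1 array. The list had 6 called without attachment replicate 3, against 13. An adjusted p under 0.05 was not reached by CEACAM6, CEACAM5 and SPDEF without attachment replicate 3 (adjusted p = 0.0827, 0.108, 0.0957), with a range over 18 alternatives of 0.00575 to 0.108. More alternatives ended the call of AGR3 (4 of 18 alternatives, adjusted p up to 0.16 without attachment replicate 3) and AGR2 (3 of 18 alternatives, adjusted p up to 0.156 without attachment replicate 3). The log2 fold change was 3.57 for CEACAM6 without attachment replicate 2, 2.12 for CEACAM6 without attachment replicate 3, 2.04 for CEACAM5 without low-attachment replicate 1, 1.60 for LYZ with a pseudocount of 16 and 1.58 for AGR3 with a pseudocount of 16.

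**Figure D2:**
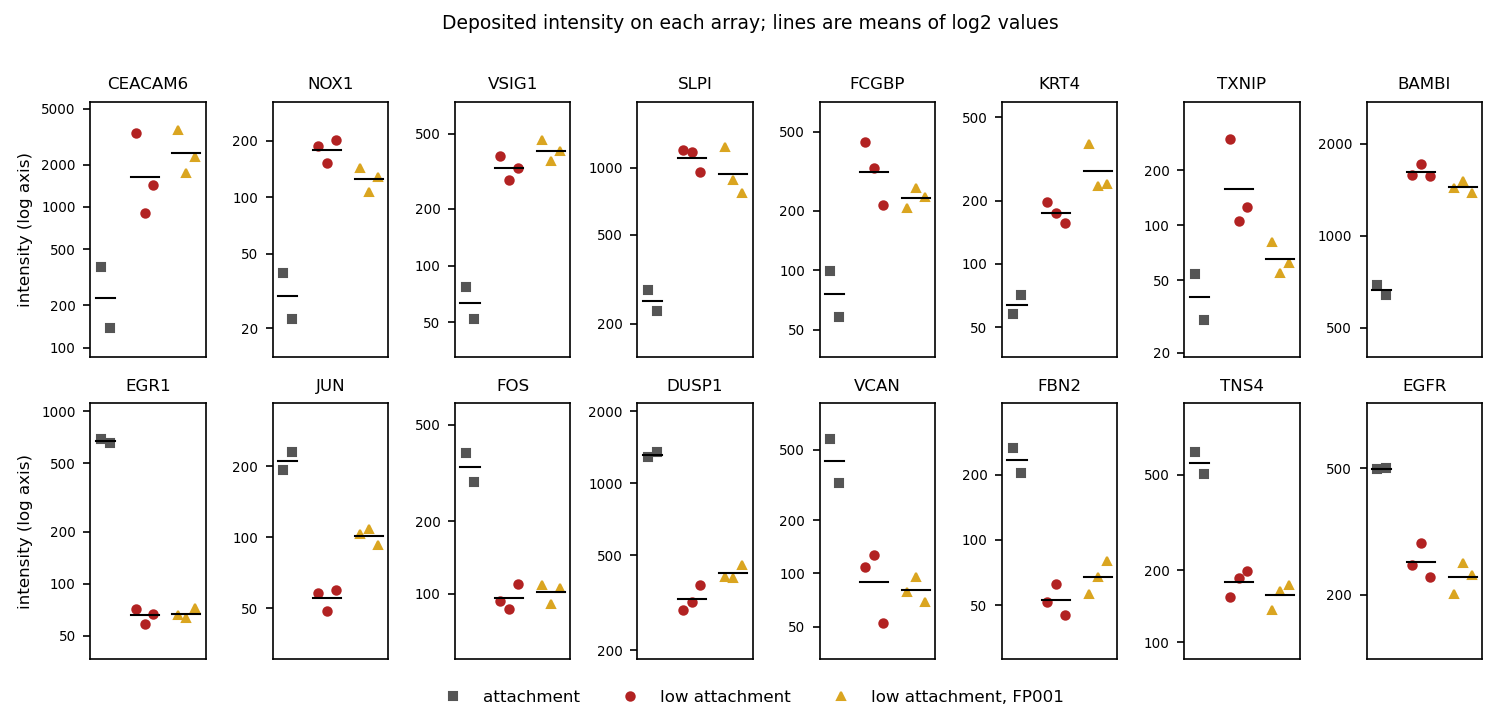
Each panel gives the deposited intensity of 1 gene on a log axis for the 2 attachment arrays (grey squares), the 3 low-attachment arrays (red circles) and the 3 low-attachment arrays with FP001 (yellow triangles). Lines are the means of the log2 values. In the upper row the red circles lie above both grey squares for all 8 genes, and in the lower row they lie below both.

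Keratins changed in both directions. Of 16 keratins and other intermediate filament genes tested, 5 rose and 2 fell, and the list had 2 called without attachment replicate 2, 1 without attachment replicate 3 and 4 without low-attachment replicate 1. KRT20, a keratin of gut lining cells, read 31.9 and 22.1 against 211, 74.5 and 81.2, with low-attachment replicate 1 far above the others. KRT4, a keratin of wet stratified epithelia, read 57.6 and 71.1 against 198, 175 and 157 and rose by 1.46 ± 0.19 (adjusted p = 0.00159). KRT19, of simple and glandular epithelia, read 212 and 160.1 against 514, 335 and 310.0. Another keratin gene among the 5 rises reached the median on 6 arrays, those of the low-attachment plates with and without FP001. It passed the filter only through plates where it was high, so its call supports nothing. The keratins that fell were KRT80, by 0.73 on the log2 scale, and KRT7, by 0.54. KRT18, above, had a log2 fold change of 0.05 ± 0.06 and was not called. The call was lost for KRT19 without attachment replicate 3 (adjusted p = 0.13), with a range over 18 alternatives of 0.0105 to 0.13. Calls were less steady for KRT20 (3 of 18 alternatives, adjusted p up to 0.15 without attachment replicate 3), KRT80 (5 of 18 alternatives, adjusted p up to 0.131 without attachment replicate 2) and KRT7 (11 of 18 alternatives, adjusted p up to 0.215 without attachment replicate 3).

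Cell-cell junction genes rose more often than they fell, 5 against 1 of 22 tested, with a median of 0.10 and 3 called without attachment replicate 3. CLDN2, a claudin that forms pores for cations, read 77.2 and 70.2 against 151, 136 and 127 and rose by 0.90 ± 0.13 (adjusted p = 0.0023). TJP3, a scaffold under tight junctions, read 139.9 and 114 against 257, 220.5 and 215. DSC2, a desmosomal cadherin, rose by 0.66 ± 0.12, CLDN4 by 0.61 ± 0.17 and CLDN3 by 0.43 ± 0.11, both claudins that tighten the barrier. CLDN1, another sealing claudin, moved the other way, from 738 and 678 to 359, 398 and 401, a log2 fold change of −0.87 ± 0.10 (adjusted p = 0.000921). CLDN4 was not called with a replicate block (adjusted p = 0.0509). All 3 low-attachment values of CLDN1 lay close together and far under both attachment values. A call ended for DSC2 without attachment replicate 3 (adjusted p = 0.0664), with a range over 18 alternatives of 0.00573 to 0.0664. Loss of the call was more frequent for CLDN4 (8 of 18 alternatives, adjusted p up to 0.274 without attachment replicate 3) and CLDN3 (8 of 18 alternatives, adjusted p up to 0.2 without attachment replicate 3).

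Of 43 tetraspanins and other adhesion and surface proteins, 8 rose and 2 fell (3 called without attachment replicate 2 and 4 without attachment replicate 3). CD22, a sialic acid binding receptor best known from B cells, read 23.7 and 31.5 against 73.2, 70.3 and 68.9, close to equal on the 3 low-attachment arrays. Its log2 fold change was 1.38 ± 0.17 (adjusted p = 0.00113). TSPAN4, a tetraspanin, rose by 0.70 ± 0.14, and PCDHB5, a protocadherin, fell by 0.73 on the log2 scale. Outside the lists, the largest rises held MATN2, a matrix protein of the matrilin family, at 31.2 and 36.6 against 98.9, 116 and 104 (log2 fold change 1.65 ± 0.11, adjusted p = 3.41e-05). RAP1GAP, which switches off the adhesion regulator RAP1, read 123 and 143 against 392, 376 and 343 (log2 fold change 1.48 ± 0.11, adjusted p = 6.98e-05). AQP3, a channel for water and glycerol, read 88.3 and 101 against 206, 264 and 421, and the mucin-like membrane protein PARM1 read 248 and 199 against 792, 472 and 527. TPPP3 and TPPP, which bundle microtubules, read 360.3 and 152 against 1636, 1080.4 and 1302 and 139 and 88.5 against 412, 289 and 249. TPPP3 is on the list of tubulin, microtubule and cilium genes. Of its 30 tested, 2 rose and 1, IFT81, fell, together 10.0%, against 10.1% of all genes. ANXA13, an annexin of gut and kidney epithelium, read 704 and 470.4 against 1674, 1279.5 and 1270.5, and ANXA3 went from 423 and 341 to 193, 108 and 135. Over all annexins and S100 proteins, which bind calcium, 4 of 25 rose and 3 fell (2 called without attachment replicate 2, 3 without attachment replicate 3, 4 without low-attachment replicate 1 and 3 without low-attachment replicate 3). Alternatives ended the call of TSPAN4, PCDHB5, AQP3 and ANXA3 without attachment replicate 2 (adjusted p = 0.0857, 0.0882, 0.0507, 0.0646) and of TSPAN4 without attachment replicate 3 (0.0772), with a range over 18 alternatives of 0.00148 to 0.0882. The log2 fold change was 3.12 for TPPP3 without attachment replicate 2 and 1.87 for TPPP3 without attachment replicate 3.

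Immediate early genes are those that cells switch on within minutes of growth factor or adhesion signals, without new protein synthesis. Of 22 tested 8 fell and 1 rose, with a median of −0.31, and 7 of the 9 were called in every fit without 1 array. EGR1, a zinc finger transcription factor, read 694 and 654 on attachment plates and 71.7, 58.7 and 66.8 on low-attachment plates. Its log2 fold change of −3.36 ± 0.11 (adjusted p = 1.21e-07) was the largest fall of all genes tested. JUN, one partner in the AP-1 transcription factor, read 192 and 231 against 58.3, 48.9 and 59.5 (log2 fold change −1.93 ± 0.13, adjusted p = 3.41e-05). FOS, the other, read 383 and 291 against 93.1, 86.3 and 110.2 (log2 fold change −1.80 ± 0.15, adjusted p = 0.000174). The other probe set of FOS gave a log2 fold change of −0.54, and averaging both gave −1.17. JUNB and FOSB, of the same families, read 447 and 479 against 153, 227 and 243 and 123 and 119 against 48.4, 56.2 and 63.6. The other probe set of FOSB was not called, at 0.03 on the log2 scale (adjusted p = 0.919 over the 11711 named probe sets kept). SGK1, a serum-induced kinase named after its values were seen, read 41.4 and 63.1 against 25.1, 24.8 and 23.9. KLF2, a zinc finger factor known from vessel lining and resting lymphocytes, was the 1 member that rose, from 119 and 135 to 291, 242 and 307 (1.13 ± 0.12, adjusted p = 0.000596). In 15 tested genes of the KLF family it was also the only one called (6.67%, under the 10.1% of all genes).

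The promoter of EGR1 is shown because EGR1 fell most and because it holds a pair of CArG boxes, the motif that SRF binds. The stretch lies at chr5:138465354-138465425 on the + strand of GRCh38.p14 (RefSeq), from 125 to 54 bases before the gene's start, with the CArG boxes in capitals.
EGR1: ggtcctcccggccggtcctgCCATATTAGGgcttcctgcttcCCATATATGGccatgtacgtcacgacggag
The CArG box, a run of A and T between a CC and a GG, was looked for on both strands in 300-base promoters, from 250 bases before the start to 50 after it. Of the 9 called immediate early genes, EGR1 was the 1 whose promoter held it, against 1.29% of all 27305 promoters and 1.11% of the 8378 of genes tested here. The cAMP response element TGACGTCA was in 0 of the 9 (1.98% of all promoters), and the AP-1 site TGANTCA also in 0 (7.76%). Matches are a description of letters, not of binding. Sites outside this window, or with other letters, were not looked for, so a gene with 0 matches may still have such a site.

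ERK feedback genes, which ERK switches on and which then damp it, changed in both directions: of 14 tested 2 fell and 2 rose (2 called without attachment replicate 2, 2 without attachment replicate 3, 2 without low-attachment replicate 2 and 2 without low-attachment replicate 3). DUSP1, a phosphatase of MAP kinases and itself an immediate early gene, read 1285 and 1346 against 295, 318 and 377 (log2 fold change −2.002 ± 0.11, adjusted p = 1.27e-05). ETV4, an ETS factor downstream of ERK, read 218 and 223 against 302, 326 and 328 and rose by 0.53 ± 0.08 (adjusted p = 0.00354). DUSP6, a direct ERK target named after its values were seen, read 124 and 128 against 135, 113 and 151, with overlapping groups.

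Focal adhesion, actin and matrix genes fell more often than they rose. Of 12 focal adhesion genes 3 were called, all lower, and the median was −0.28. TNS4, a short tensin that binds integrin tails but lacks the actin-binding part of its relatives, read 622 and 503 against 154, 185 and 198 (log2 fold change −1.65 ± 0.14, adjusted p = 0.000204). TNS3, a full-length tensin, read 738 and 611 against 365, 378 and 337 (adjusted p = 0.00129), and ZYX, the tension-sensing protein zyxin, fell by 0.54. Of 13 actin genes 4 fell and 2 rose (2 called without attachment replicate 2 and 3 without attachment replicate 3). VCL, vinculin, which links integrins to actin, read 1059 and 1173 against 734, 787 and 631, and CNN2, a calponin, 846 and 863 against 495, 551 and 556. TPM1, a tropomyosin that lines stress fibres, read 154 and 143 against 104, 78.8 and 80.9, and CALD1, caldesmon, which binds the same fibres, fell by 0.51. The 2 that rose, EZR and VIL1, encode ezrin and villin of microvilli on the free face of epithelial cells, and read 1726 and 1691 against 2349, 2230.3 and 2110.4 and 51.5 and 55.2 against 96.9, 76.7 and 69.8. Of 12 targets of YAP and TAZ, factors that enter the nucleus of spread cells, 3 were called, all lower (1 called without attachment replicate 2, 1 without attachment replicate 3, 1 without low-attachment replicate 2 and 1 without low-attachment replicate 3). AJUBA, a LIM protein that feeds back on the pathway, read 134 and 133 against 84.1, 77.9 and 87.8, and FOXF2 and CRIM1 fell by 0.55 and 0.39. CCN2 and ANKRD1, which are often used to read YAP activity and were named after their values were seen, were not called, at −0.13 ± 0.12 and −0.02 ± 0.17. The threshold was missed by TPM1, CALD1 and EZR without attachment replicate 2 (adjusted p = 0.0646, 0.0848, 0.0516) and by CALD1 and EZR without attachment replicate 3 (0.0574, 0.0596), with a range over 18 alternatives of 0.00203 to 0.0848. Calls were less steady for ZYX (5 of 18 alternatives, adjusted p up to 0.144 without attachment replicate 2), VIL1 (3 of 18 alternatives, adjusted p up to 0.142 without attachment replicate 2), FOXF2 (9 of 18 alternatives, adjusted p up to 0.218 without attachment replicate 2) and CRIM1 (9 of 18 alternatives, adjusted p up to 0.203 without attachment replicate 3).

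Of 14 structural matrix genes 5 fell and 1 rose (3 called without attachment replicate 2). VCAN, the large proteoglycan versican, read 572 and 325 against 109, 126 and 52.6, and FBN2, a fibrillin of elastic microfibrils, 268 and 204 against 51.6, 62.8 and 45.2. Their log2 fold changes were −2.27 ± 0.34 and −2.15 ± 0.18 (adjusted p = 0.00302 and 0.000188). NID2, a nidogen that joins laminin to collagen in basement membranes, read 52.4 and 54.0 against 22.4, 30.0 and 28.3. PRG4, the joint lubricant lubricin, read 105 and 69.2 against 15.3, 44.3 and 35.1. FN1, fibronectin, was the 1 that rose, from 1989 and 1715 to 2649, 3738 and 2786 (0.71 ± 0.20, adjusted p = 0.0492). The median of the list, −0.20, was 0.03 when attachment replicate 2 was left out and −0.54 when attachment replicate 3 was. HAS2, which makes the matrix sugar hyaluronan, read 206 and 123 against 59.9, 45.3 and 58.8, and the membrane proteases ADAM12 and ADAM19 read 148 and 109 against 48.4, 43.6 and 53.9 and 87.2 and 95.0 against 33.9, 36.5 and 43.3. Of 17 matricellular proteins and matrix enzymes 5 fell and 2 rose (2 called without attachment replicate 2, 2 without attachment replicate 3, 4 without low-attachment replicate 1, 2 without low-attachment replicate 2 and 3 without low-attachment replicate 3). THBS1, thrombospondin, fell by 0.48, while CCN3, a matricellular protein of the same family as CCN2, went from 41.7 and 50.4 to 86.0, 97.9 and 122. Loss of the call was more frequent for PRG4 (4 of 18 alternatives, adjusted p up to 0.211 without attachment replicate 2), FN1 (8 of 18 alternatives, adjusted p up to 0.232 without attachment replicate 3) and THBS1 (6 of 18 alternatives, adjusted p up to 0.238 without attachment replicate 2).

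**Figure D3:**
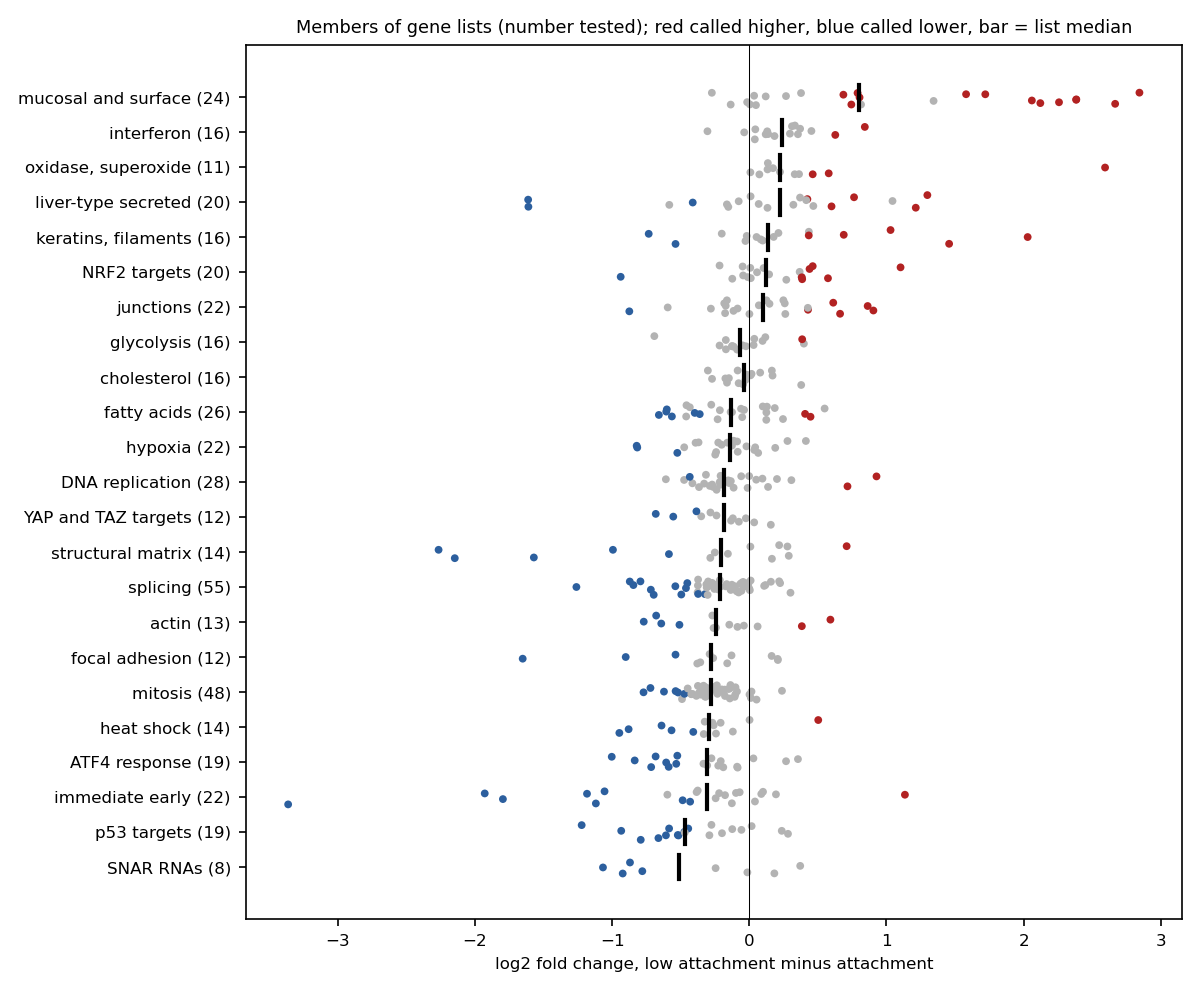
Each point is 1 tested gene of a list named at the left with the number tested, placed by its log2 fold change of low attachment against attachment. Red points were called higher, blue points called lower and grey points not called, and black bars are list medians, which run from 0.80 for the mucosal and surface genes to −0.51 for the SNAR RNAs. Points are spread up and down within a line for visibility only.

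Growth factors and their receptors changed in both directions, 8 lower and 3 higher of 27 tested (6 called without attachment replicate 2 and 4 without attachment replicate 3). EGFR, the epidermal growth factor receptor, read 497 and 499 against 249, 289.9 and 228 (log2 fold change −0.97 ± 0.12, adjusted p = 0.00136). IGFBP7, a secreted protein that binds insulin-like growth factors, read 407 and 532 against 145, 154 and 109 (log2 fold change −1.79 ± 0.15, adjusted p = 0.000203). VEGFC, a growth factor of lymph vessels, read 154 and 164 against 61.7, 79.5 and 100.0, and NRP2, a co-receptor for it, fell by 0.96. GFRA1, the receptor part that binds the neurotrophic factor GDNF, read 132 and 111 against 53.1, 40.2 and 30.0. HGF, the ligand of the MET receptor, was dim at 15.8 and 12.6 on attachment plates and read 31.1, 23.8 and 39.4 on low-attachment plates. It reached the array median on those 3 arrays alone, so it passed the filter only through the group where it was high, and its call supports nothing. This held for 2 of all genes tested, of which HGF was the 1 called and is among the 3 counted as higher. Genes that also reached the median on the FP001 arrays, such as LYZ and AGR3 above, are not in that 2. IGFBP1, another binding protein of the insulin-like factors, rose by 0.91 ± 0.18. The call was lost for VEGFC without attachment replicate 2 (adjusted p = 0.0621) and for VEGFC and IGFBP1 without attachment replicate 3 (0.0716, 0.0972), with a range over 18 alternatives of 0.00517 to 0.0972. Calls failed more often for NRP2 (3 of 18 alternatives, adjusted p up to 0.146 without attachment replicate 3).

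In the Notch, BMP and TGF-beta list 3 of 24 fell and 1 rose, together 16.7%, against 10.1% of all genes. BAMBI, a decoy receptor that blocks BMP and TGF-beta signals, read 688 and 641 against 1578, 1717 and 1566 (log2 fold change 1.28 ± 0.08, adjusted p = 2.52e-05), one of the most even rises among the arrays. JAG1, a Notch ligand, read 522 and 670.2 against 222, 337 and 256, LTBP1, which stores latent TGF-beta in the matrix, 247 and 235 against 114, 130.1 and 122, and BMP4, a BMP ligand, fell by 0.61. Of 27 Wnt genes 3 rose and 3 fell (3 called without attachment replicate 2 and 3 without attachment replicate 3). Among the Frizzled receptors, FZD2 read 151 and 151 against 82.2, 73.3 and 80.0 and FZD8 229 and 189 against 126, 107 and 109, while FZD1 rose by 0.60 ± 0.11. RNF43, which removes Frizzled receptors from the membrane, read 213 and 126 against 377, 294 and 290.2, and LGR4, which restrains RNF43, rose by 0.38 ± 0.08. A call ended for FZD1 and LGR4 without attachment replicate 2 (adjusted p = 0.0646, 0.143) and for RNF43 and LGR4 without attachment replicate 3 (0.0711, 0.0558), with a range over 18 alternatives of 0.00472 to 0.143. More alternatives ended the call of BMP4 (4 of 18 alternatives, adjusted p up to 0.251 without attachment replicate 2).

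Of 19 targets of p53, the factor that stops or kills cells after DNA damage and other stress, 10 were called, all lower, with a median of −0.47 (2 called without attachment replicate 2). GDF15, a secreted stress cytokine, read 1142 and 929 against 436, 385 and 513 (log2 fold change −1.22 ± 0.13, adjusted p = 0.000596). SESN1, a sestrin that restrains the growth kinase mTORC1, read 70.1 and 68.4 against 40.0, 38.7 and 41.3 (adjusted p = 0.00124). BAX, which opens mitochondria in cell death, read 395 and 355 against 202, 259 and 253, and EDA2R, a receptor of the TNF family, 699.7 and 585 against 259, 375 and 388. RRM2B, which makes DNA building blocks for repair, fell by 0.61. Several of these genes have other regulators too. APAF1, which forms the apoptosome and was 1 of 2 genes called (12.5%), both lower, among 16 of cell death, read 182 and 150.3 against 96.5, 105 and 110.3. Alternatives ended the call of BAX, EDA2R, RRM2B and APAF1 without attachment replicate 2 (adjusted p = 0.0734, 0.123, 0.0715, 0.073), with a range over 18 alternatives of 0.00512 to 0.123.

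Of 19 genes of the amino acid response, which the factor ATF4 drives, 8 were called, all lower, with a median of −0.31 (3 called without attachment replicate 2). They included all 3 enzymes of serine synthesis, PHGDH, PSAT1 and PSPH. PHGDH read 258 and 255 against 114, 164 and 158 and PSPH 295 and 248 against 155, 171 and 168, and PSAT1 fell by 0.59. CTH, which makes cysteine, read 81.9 and 64.5 against 43.3, 45.3 and 47.4, and ASNS, asparagine synthetase, fell by 0.61. VLDLR, a lipoprotein receptor, read 146 and 128 against 67.6, 67.0 and 70.0 (log2 fold change −1.003 ± 0.10, adjusted p = 0.000427), and its low-attachment values were close to equal. GLDC, the glycine cleavage enzyme, which was on no list, read 326 and 398 against 114, 150.5 and 158. Low-attachment replicate 1 was the lowest of its group for 16 of the 19, against 40.1% of all genes tested. Significance was lost for PHGDH, PSAT1, CTH and ASNS without attachment replicate 2 (adjusted p = 0.0734, 0.11, 0.0762, 0.147) and for PHGDH and PSAT1 without attachment replicate 3 (0.0604, 0.0532), with a range over 18 alternatives of 0.00614 to 0.147.

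Cytosolic heat shock genes fell in 5 of 14 cases and rose in 1. HSPH1, a partner of HSP70 that frees bound nucleotide, read 1257 and 1320.2 against 570.1, 738 and 709, and HSPA4L, its close relative, 446 and 391 against 182, 265 and 243. HSPB1, the small chaperone HSP27, read 2741 and 2789.5 against 2102, 2082 and 2067, a small but even fall of 0.41 (adjusted p = 0.00375). BAG1, a regulator of HSP70, rose by 0.50 ± 0.12. Of 12 chaperones of the endoplasmic reticulum 1 was called, higher (8.33%). The threshold was missed by HSPA4L without attachment replicate 2 (adjusted p = 0.0811), with a range over 18 alternatives of 0.00588 to 0.0811. Calls failed more often for BAG1 (4 of 18 alternatives, adjusted p up to 0.184 without attachment replicate 3).

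**Figure D4:**
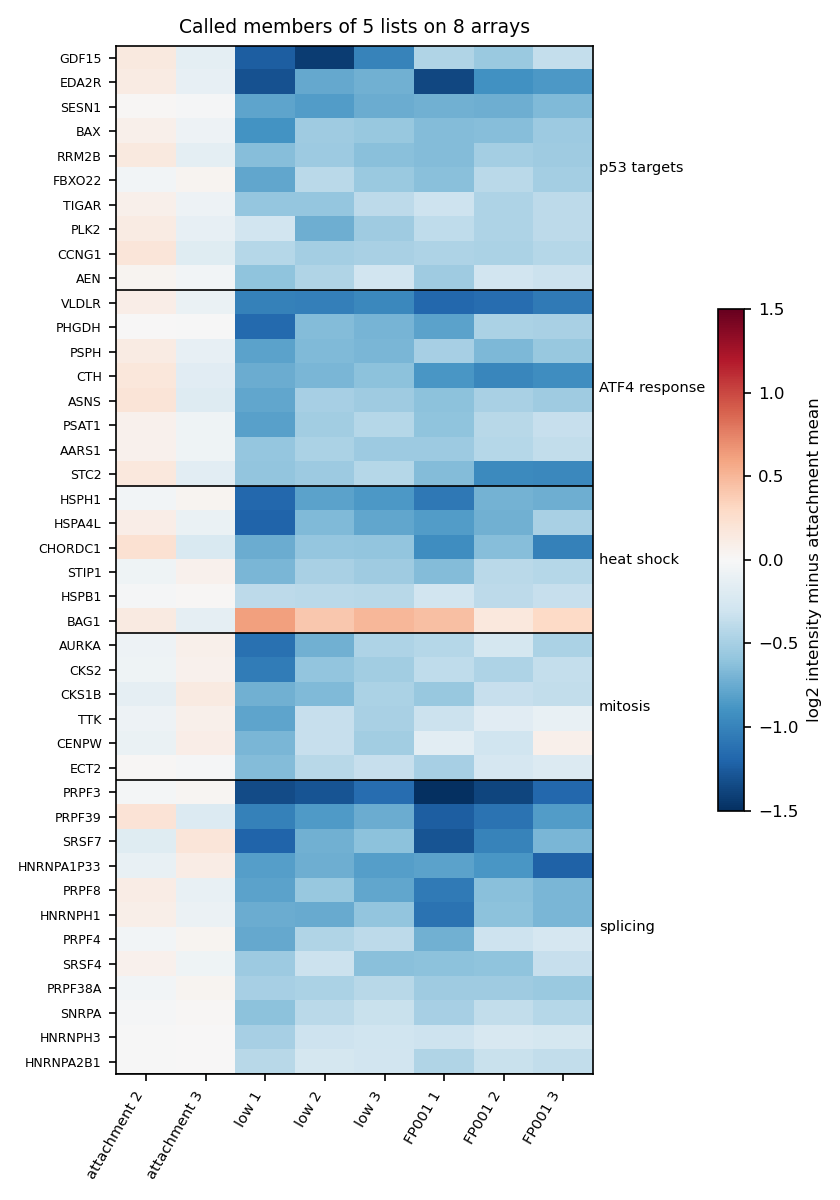
The colour gives, for each called gene of 5 lists (rows) on each of 8 arrays (columns), the log2 intensity minus the mean of the attachment arrays, from −1.5 (blue) to 1.5 (red). All genes shown but BAG1 were lower on the 3 low-attachment arrays, and the 6 mitosis genes have a mean nearer to 0 on the FP001 arrays than on the low-attachment arrays.

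In lipid metabolism, 6 of 26 fatty acid genes fell and 2 rose (2 called without attachment replicate 2, 4 without attachment replicate 3, 5 without low-attachment replicate 2 and 5 without low-attachment replicate 3), while of 16 cholesterol genes 0 were called by limma and 1 had an unadjusted p under 0.05. SCD, which makes monounsaturated fatty acids, read 4122 and 3735 against 2530.3, 2471 and 2454 (log2 fold change −0.66 ± 0.07, adjusted p = 0.000514). FASN, fatty acid synthase, read 333 and 321 against 208, 230.3 and 209, and PLIN2, which coats lipid droplets, fell by 0.56. The 2 that rose were CPT1A, which brings fatty acids into mitochondria, by 0.45 ± 0.11, and PNPLA2, a triglyceride lipase, by 0.41 ± 0.09, while the other probe set of PNPLA2 was not called (0.27, adjusted p = 0.144). ELOVL2, which lengthens polyunsaturated fatty acids and was on no list, read 295 and 282 against 68.0, 135 and 129. Of 22 hypoxia targets 3 were called, all lower (1 called without attachment replicate 2). The share of hypoxia targets called was 13.6%, near the 10.1% of all genes. ADM, the vessel peptide adrenomedullin, read 172 and 159.7 against 81.8, 88.4 and 114 and ANGPTL4, an inhibitor of lipoprotein lipase, 145 and 169 against 78.2, 94.7 and 94.5. In glycolysis 1 of 16 genes was called, higher, a share of 6.25%. TXNIP, an inhibitor of glucose uptake that glucose itself induces, was the 1 of 16 glucose sensing genes called (6.25%). It read 53.7 and 30.2 against 298, 105 and 125 (log2 fold change 1.97 ± 0.38, adjusted p = 0.0106). An adjusted p under 0.05 was not reached by FASN, PLIN2, ELOVL2 and ADM without attachment replicate 2 (adjusted p = 0.0629, 0.165, 0.0573, 0.0501) and by PLIN2 without low-attachment replicate 2 (0.0545) and by ANGPTL4 and TXNIP without attachment replicate 3 (0.0611, 0.103), with a range over 18 alternatives of 0.00111 to 0.165. More alternatives ended the call of CPT1A (5 of 18 alternatives, adjusted p up to 0.146 without attachment replicate 3) and PNPLA2 (5 of 18 alternatives, adjusted p up to 0.121 without attachment replicate 3).

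Several genes of redox balance rose. NOX1, an oxidase that makes superoxide and is known from colon lining cells, read 39.3 and 22.5 against 188, 152 and 202 (log2 fold change 2.59 ± 0.22, adjusted p = 0.000188), and was 1 of 3 rises among 11 oxidase and superoxide genes. GPX3 and GPX2, glutathione peroxidases, rose by 0.58 ± 0.11 and 0.46 ± 0.10. Of 20 targets of NRF2, the factor that A549 cells keep active through a mutant KEAP1, 6 rose and 1 fell (2 called without attachment replicate 2, 2 without attachment replicate 3 and 4 without low-attachment replicate 1). KEAP1 itself, the brake of NRF2, read 402 and 386 against 511, 549.7 and 544 and rose by 0.44 ± 0.08. GSTA1, a glutathione transferase, read 55.0 and 62.8 against 172, 113 and 103. The 1 that fell was HMOX1, heme oxygenase, at 689 and 768 against 274, 426 and 469.9 (adjusted p = 0.0412). FLVCR1, a heme exporter, read 344 and 346 against 173, 201 and 186, and CP, the copper carrier ceruloplasmin, 1375 and 880.4 against 2909, 2396 and 2384. ADH6, an alcohol dehydrogenase, read 54.0 and 24.3 against 142, 97.9 and 103. The call was lost for GPX3 and GSTA1 without attachment replicate 2 (adjusted p = 0.0862, 0.0731) and for GPX2 and KEAP1 without attachment replicate 3 (0.146, 0.0548), with a range over 18 alternatives of 0.00329 to 0.146. Calls were less steady for HMOX1 (7 of 18 alternatives, adjusted p up to 0.188 without attachment replicate 3).

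A549 cells make several plasma proteins of the liver, and of 20 liver-type genes tested 5 rose and 3 fell (5 called without attachment replicate 2 and 4 without attachment replicate 3). APOH, an apolipoprotein that binds membrane lipids, read 1327 and 803 against 3165, 2116 and 2442, and AMBP, the precursor of a plasma protease inhibitor, 104 and 103 against 181, 176 and 172. TTR, which carries thyroid hormone, rose by 0.60 ± 0.13. TAT, which breaks down tyrosine, read 27.2 and 22.1 against 99.4, 67.8 and 62.2. NNMT, which methylates nicotinamide, read 276 and 203 against 75.2, 78.0 and 79.2 (log2 fold change −1.61 ± 0.15, adjusted p = 0.000294), and its other probe set gave −1.30. BAAT, which joins bile acids to glycine or taurine, read 786 and 575 against 309.8, 204 and 169. FOXA2, a liver and lung transcription factor, fell by 0.41. Complement and clotting genes had 2 rises and 1 fall among 20 tested, where 10.1% of all genes were called. Their median was 0.04, against 0.01 over all genes. CFB, complement factor B, was 1 of the 2 rises, at 74.0 and 66.9 against 182, 141 and 161 (adjusted p = 0.000712). A call ended for APOH and FOXA2 without attachment replicate 3 (adjusted p = 0.0806, 0.0603) and for BAAT and FOXA2 without attachment replicate 2 (0.0542, 0.133), with a range over 18 alternatives of 0.00123 to 0.133. Loss of the call was more frequent for TTR (3 of 18 alternatives, adjusted p up to 0.144 without attachment replicate 3).

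Of 12 lung differentiation genes tested 1 rose and 1 fell, together 16.7%, against 10.1% of all genes. Summed intensities of the 17 named were 933 to 963 on attachment and 917 to 921 on low-attachment arrays. FOXA2, with the highest values in these sums, read 445 and 415 against 304, 338 and 327. Of the 12 tested, 8 had a positive and 4 a negative log2 fold change, and the median was 0.17. FOXA1, a pioneer factor of airway cells, read 67.2 and 69.5 against 115, 110.1 and 100.1, and the other called gene was FOXA2, above. SFTPC, the surfactant protein of type II cells from which A549 is often said to derive, read 35.2 and 31.8 against 37.0, 37.7 and 38.7 and was not called. NKX2-1, the lung master factor, read 21.0 and 22.3 against 23.5, 23.8 and 25.2, near the array median. SFTPC and NKX2-1 were named after their values were seen. Alternatives ended the call of FOXA1 without attachment replicate 2 (adjusted p = 0.0877) and of FOXA1 without attachment replicate 3 (0.0631), with a range over 18 alternatives of 0.00309 to 0.0877.

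Proliferation genes were called about as often as all genes (10.1%). Of 48 mitosis genes 6 were called (12.5%), all lower, with a median of −0.28. Of 28 DNA replication genes 1 fell and 2 rose (10.7%), with a median of −0.18 (1 called without attachment replicate 2 and 1 without low-attachment replicate 3). AURKA, a spindle kinase, read 262 and 291 against 127, 167 and 199.8, and CKS2, a partner of cyclin-dependent kinases, 894 and 973 against 452, 618 and 649. Low-attachment replicate 1 was the lowest of its group for 48 of the 48 mitosis genes and for 27 of the 28 replication genes, and attachment replicate 3 was above attachment replicate 2 for 28 of the 28. Without low-attachment replicate 1 the medians were −0.14 for mitosis and −0.05 for replication. Calls among the mitosis genes numbered 1 without attachment replicate 2, and limma gave 0 without attachment replicate 3, while 20 of the 48 had an unadjusted p under 0.05 on 8 arrays. CCNE2, a cyclin that starts DNA synthesis, rose, from 37.1 and 48.9 to 74.9, 81.3 and 87.2 (log2 fold change 0.93 ± 0.14, adjusted p = 0.00374). MKI67, the proliferation marker Ki-67, read 951 and 962 against 724, 999 and 780.1, and MCM2, of the replicative helicase, 298 and 373 against 242, 327 and 301. Neither was called, and both were named after their values were seen. MXD1, which opposes MYC, read 53.8 and 54.5 against 96.3, 103 and 96.2 and was the 1 of 17 cell cycle regulators called (log2 fold change 0.86 ± 0.09, adjusted p = 0.000547). Significance was lost for AURKA and CKS2 without attachment replicate 2 (adjusted p = 0.0715, 0.0516) and for AURKA and CKS2 without attachment replicate 3 (0.107, 0.0787), with a range over 18 alternatives of 0.00506 to 0.107.

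The splicing machinery removes introns from new transcripts. Of 55 of its genes 12 were called, all lower (3 called without attachment replicate 2 and 4 without attachment replicate 3), with a median of −0.21, and low-attachment replicate 1 was the lowest of its group for 39. PRPF3, a protein of the tri-snRNP, read 236 and 244 against 94.7, 97.4 and 109 (log2 fold change −1.26 ± 0.13, adjusted p = 0.000578), the largest fall of the list. PRPF8, the core protein of the spliceosome, read 2742 and 2357 against 1463, 1710.1 and 1476, and HNRNPH1, which binds G-rich stretches of RNA, 259 and 229 against 145, 145 and 161. SRSF7, an SR protein, fell by 0.84. Of 48 ribosomal protein genes 1 was called, RPS27L, a p53-induced relative of a small-subunit protein, at 66.9 and 58.2 against 35.7, 38.6 and 40.7. Of 73 mitochondrial ribosomal protein genes 1 was called, lower, and of the 354 zinc finger genes 28 fell and 3 rose, together 8.76% (6 called without attachment replicate 2, 12 without attachment replicate 3, 19 without low-attachment replicate 1 and 18 without low-attachment replicate 2). The threshold was missed by PRPF8, HNRNPH1 and RPS27L without attachment replicate 2 (adjusted p = 0.0875, 0.113, 0.0817), with a range over 18 alternatives of 0.00177 to 0.113. Calls were less steady for SRSF7 (4 of 18 alternatives, adjusted p up to 0.178 without attachment replicate 3).

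Non-coding genes made up a large share of the named probe sets. Of 397 microRNA genes 11 rose and 11 fell (together 5.54%, against 10.1% of all genes), the 3 largest changes were falls, and the calls numbered 4 without attachment replicate 2, 10 without attachment replicate 3, 12 without low-attachment replicate 1, 8 without low-attachment replicate 2 and 12 without low-attachment replicate 3. MIR3189, a hairpin inside GDF15, read 208 and 236 against 63.7, 36.9 and 58.9 (log2 fold change −2.10 ± 0.22, adjusted p = 0.000547). GDF15, which holds it, also fell, as given above. MIR21, a hairpin at the end of VMP1 and among the most abundant microRNAs of carcinoma cells, read 440.1 and 412 against 134, 119.9 and 165 (log2 fold change −1.62 ± 0.17, adjusted p = 0.000612). VMP1 itself, named after its values were seen, read 2862 and 2846 against 2819.7, 2850.1 and 2913 (log2 fold change 0.00 ± 0.07, adjusted p = 0.981). MIR590, inside EIF4H, was dim at 44.9 and 46.1 against 17.0, 18.2 and 28.3 and fell by 1.14 (adjusted p = 0.0441), while EIF4H, also named after its values were seen, had a log2 fold change of −0.03 ± 0.07. MIR590 reached the median on both attachment arrays and low-attachment replicate 3 alone, so it passed the filter chiefly through the group where it was high. A filter on the mean over the 8 arrays left it out, so 17 alternatives remained for it. Whether a probe set named for a microRNA gene reads the mature microRNA, its precursor or the host transcript is not stated by any source used here.

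Mature sequences of these genes are shown because MIR21 and MIR590 carry the only seed shared by 2 of the 21 called microRNA genes with a mature sequence in the RefSeq table. Capitals mark the seed, bases 2 to 8. On GRCh38.p14 hsa-miR-21-5p lies at chr17:59841273-59841294, hsa-miR-590-5p at chr7:74191213-74191234 and hsa-miR-3189-3p at chr19:18386607-18386627, all on the + strand.
hsa-miR-21-5p: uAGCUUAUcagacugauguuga
hsa-miR-590-5p: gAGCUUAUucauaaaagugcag
hsa-miR-3189-3p: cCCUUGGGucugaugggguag
A microRNA finds its targets chiefly by pairing through the seed. Loss of the call was more frequent for MIR590 (7 of 17 alternatives, adjusted p up to 0.183 without attachment replicate 2).

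SNAR RNAs, small non-coding transcripts of RNA polymerase III that bind the protein NF90, were called in 4 of 8 cases, all lower, with a median of −0.51, and the same number was called in each fit without 1 of the 5 arrays compared. SNAR-B1 read 4228 and 4268 against 1939, 2347 and 2474 (log2 fold change −0.92 ± 0.09, adjusted p = 0.000547), and SNAR-H 609.6 and 669 against 260.3, 340.2 and 319.9 (log2 fold change −1.07 ± 0.12, adjusted p = 0.000921). SNAR genes are near-identical copies, so the 4 falls may read the same transcripts. VTRNA2-1 and VTRNA1-3, named like the vault RNAs that polymerase III also makes, were the 2 genes of that name tested, and the latter was named after its values were seen. VTRNA2-1 went from 30.4 and 30.1 to 11.3, 9.07 and 19.3 and VTRNA1-3 from 191 and 243 to 83.6, 95.5 and 105 (log2 fold change −1.19 ± 0.13). VTRNA2-1 was above the median on both attachment arrays and under it on every low-attachment array in normal medium. Of the groups compared, it passed the filter only through the one where it was high, so its call supports nothing. The filter on the mean left VTRNA2-1 out, so 17 alternatives remained for it. Of 165 long intergenic RNAs 7 fell and 2 rose, together 5.45% (5 called without attachment replicate 2), and of 231 antisense RNAs 5 fell and 7 rose, together 5.19%, both under the 10.1% of all genes. Antisense calls numbered 2 without attachment replicate 2, 0 without attachment replicate 3 by limma [30 at an unadjusted p under 0.05], 3 without low-attachment replicate 1, 5 without low-attachment replicate 2 and 7 without low-attachment replicate 3. LINC00842 read 141 and 198 against 61.0, 89.4 and 67.5 and LINC00920 63.9 and 50.6 against 160.3, 102 and 101. LINC01085, the other of the 2 long intergenic RNAs that rose, read 12.7 and 13.6 against 25.5, 24.6 and 21.9. It reached the median on 3 arrays, all of low-attachment plates with or without FP001. It passed the filter only through plates where it was high, so its call supports nothing. Antisense values can hold reads of the partner gene where strands are not told apart. Calls failed more often for VTRNA2-1 (5 of 17 alternatives, adjusted p up to 0.133 without attachment replicate 2) and LINC00920 (3 of 18 alternatives, adjusted p up to 0.132 without attachment replicate 3). The log2 fold change was −0.68 for VTRNA2-1 with a pseudocount of 16.

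Among signals to the immune system, 4 of 20 inflammatory genes fell and 1 rose (2 called without attachment replicate 2 and 2 without attachment replicate 3). LIF, a cytokine of the interleukin-6 family, read 165 and 183 against 81.2, 82.8 and 113 (log2 fold change −0.93 ± 0.15, adjusted p = 0.00421), and SOCS3, the feedback inhibitor of its receptor, 98.3 and 108 against 61.7, 64.5 and 73.0. CXCL2 and CXCL3, chemokines for neutrophils, fell by 0.62 and 0.55, and CCL2, a chemokine for monocytes, went from 71.2 and 80.7 to 151, 112 and 180.2. Of 16 interferon targets 2 were called (12.5%, near the 10.1% of all genes), both higher. B2M, the light chain of class I molecules, read 175 and 185 against 395, 283 and 301, and IFI35 rose by 0.63 ± 0.17. B2M has another probe set, which was not called (0.49, adjusted p = 0.143). Calls in the list numbered 1 without attachment replicate 2, 0 without attachment replicate 3 by limma [5 at an unadjusted p under 0.05], 1 without low-attachment replicate 1, 1 without low-attachment replicate 2 and 1 without low-attachment replicate 3. Of 29 lysosome and autophagy genes 3 were called (10.3%, near the share of all genes), all higher (1 called without attachment replicate 2, 1 without attachment replicate 3, 1 without low-attachment replicate 1, 1 without low-attachment replicate 2 and 1 without low-attachment replicate 3). CTSD, the lysosomal protease cathepsin D, was among them at 3461 and 3105 against 4667, 4273 and 4414 (log2 fold change 0.44 ± 0.07, adjusted p = 0.00429). A call ended for SOCS3 and B2M without attachment replicate 3 (adjusted p = 0.0757, 0.0615) and for CCL2 and B2M without attachment replicate 2 (0.0845, 0.0912), with a range over 18 alternatives of 0.00206 to 0.0912. More alternatives ended the call of CXCL2 (4 of 18 alternatives, adjusted p up to 0.155 without attachment replicate 3), CXCL3 (11 of 18 alternatives, adjusted p up to 0.193 without attachment replicate 3) and IFI35 (8 of 18 alternatives, adjusted p up to 0.231 without attachment replicate 3).

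Other genes among the largest falls were on no list. AKAP12, a scaffold for protein kinase A, read 253 and 228 against 59.9, 94.2 and 91.3 (log2 fold change −1.58 ± 0.22, adjusted p = 0.00211), and DCDC2, a doublecortin protein of microtubules and cilia, 554 and 441 against 229, 178 and 156 (log2 fold change −1.42 ± 0.18, adjusted p = 0.00132). Genes at or above the median only on the attachment arrays could not pass the filter of 3 arrays. A filter of 2 arrays adds 210 genes, and the 20 of them with an adjusted p under 0.05 and lower values all reached the median on the attachment arrays only. They passed through the group where they were high, so nothing is read from their number. The chemokine CXCL8 (interleukin-8), 1 of these, read 23.8 and 26.8 against 14.3, 13.8 and 16.2, and the immune checkpoint ligand CD274 (PD-L1) 27.4 and 24.2 against 16.5, 16.1 and 13.7, both named after their values were seen.

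The arrays with FP001 share the attachment arrays as their control, so their values are given side by side only, with no test. EGR1 read 65.8, 63.2 and 72.7 with FP001, TNS4 137, 164 and 174, VCAN 78.1, 95.5 and 68.9 and VSIG1 464, 359 and 404, each overlapping the range of low attachment in normal medium. For other genes the FP001 arrays lay between the groups or reached the attachment values. SNAR-B1 read 3759, 3611 and 3791, nearer the attachment values of 4228 and 4268 than the low-attachment values of 1939, 2347 and 2474. SNAR-H read 616, 538 and 629, GDF15 752, 699.7 and 806 and JUN 103, 108 and 92.3. TXNIP read 80.6, 54.9 and 62.3 and CFB 109, 90.0 and 90.8, each array under all 3 low-attachment arrays in normal medium. MIR21 read 60.8, 66.6 and 90.7 and CD22 102, 142 and 145, each beyond the low-attachment arrays on the side away from attachment. MIR590 did the same at 7.04, 9.17 and 15.97.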

How the data were processed

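RNA from A549 cells was measured on 9 Affymetrix arrays, 1 per sample. The deposited intensities were computed by the authors with MAS5, per the submitters' processing notes, and are linear. Neither scaling settings nor an annotation version were stated. MAS5 in general subtracts background and works array by array, so dim values are its noisiest. Gene names come from GEO's annotation of the platform, updated by gene ID, which covers 16098 of 53617 probe sets and leaves 37519 unnamed here. Named probe sets that reached the median of their array on 3 or more of 8 arrays were kept, and the brightest stands for its gene. Log2 intensities, with no pseudocount, were fitted in limma 3.58.1 (R 4.3.3) with 3 group means over 8 arrays and an intensity trend (5 residual and 5.6 prior degrees of freedom), and p-values were adjusted by Benjamini-Hochberg over 10916 genes. The fit was tested on simulated data with independent noise on each array. That setting lacks the shared deviations of same-numbered arrays described below, so it says nothing on their effect. Of 455 genes with several kept probe sets only the brightest is reported unless stated. Members and gene lists were chosen with earlier results of these data known. Named genes were the largest 25 called rises and 25 falls and, per list, at most 6 called members (or the brightest 2), fewer where room was short. The 20 alternatives changed the arrays, scaling, filter, pseudocount, probe set choice, trend and block. Ranges and counts of lost calls per gene use 18 of them. The fit with all 9 arrays, in which no gene was called, and the replicate block are left out there and described on their own. Promoter and microRNA sequences come from RefSeq tables on GRCh38.p14.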

Additional observations from a re-analysis of the deposited data

Results flagged for a closer look

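Probe sets without a gene name here also carried differences that no comparison above used. In a fit over all 27942 kept probe sets, limma called 648 of the 16231 unnamed ones (3.99%, adjusted p under 0.05), 260 higher and 388 lower on low-attachment plates. Of these, 55 rose and 115 fell at least 2-fold. In the same fit 647 of 11711 named probe sets were called (5.52%), with 55 rises and 58 falls of at least 2-fold. What these probe sets measure is unknown here.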

How the results depend on the processing

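Over the 20 alternatives, 1100 called genes became between 0 and 1375, and the number was within 1.5 times of 1100 in 15 of them. Leaving out 1 array gave 359 to 1301 genes in all, 145 to 547 higher and 158 to 754 lower. Including attachment replicate 1 gave 0 in each direction by limma, with 190 at an unadjusted p under 0.05, and turned the sign of 52 of the 153 named genes that were called. For genes that fell, the log2 fold change then lay above 0, at 0.67 for ADM, 1.01 for AJUBA, 0.24 for ANGPTL4, 1.29 for APAF1, 0.72 for AURKA, 0.53 for BAAT, 0.64 for BAX, 0.090 for BMP4, 0.33 for CALD1, 1.20 for CKS2, 0.71 for CLDN1, 1.29 for CNN2 and 0.72 for CRIM1. It was also 0.76 for CTH, 0.26 for CXCL3, 0.72 for DCDC2, 1.19 for EDA2R, 0.92 for EGFR, 1.47 for FLVCR1, 0.12 for FOXF2, 0.51 for FZD2, 1.16 for FZD8, 0.084 for GLDC, 0.22 for HAS2, 0.23 for HNRNPH1 and 1.52 for HSPB1. Further values were 1.69 for HSPH1, 0.91 for JAG1, 0.18 for JUNB, 1.38 for KRT7, 1.02 for KRT80, 0.47 for LINC00842, 0.52 for PCDHB5, 0.40 for PLIN2, 0.30 for PRPF8, 1.43 for PSAT1, 1.67 for PSPH, 0.27 for RPS27L and 0.81 for RRM2B. The remaining values were 0.59 for SCD, 2.48 for SNAR-B1, 1.16 for SNAR-H, 0.95 for SOCS3, 1.45 for THBS1, 0.80 for THY1, 0.087 for TNS3, 2.34 for VCL, 0.55 for VLDLR and 0.60 for ZYX. For genes that rose it lay below 0, at −0.92 for FOXA1, −0.20 for PARM1 and −0.014 for PNPLA2. That array follows no other, and the cause was not tested.

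The fit and adjustment over all 27942 kept probe sets, named or not, was added after the data were seen and called 616 of the 10916 genes, 250 higher and 366 lower; it changes both the estimate of the spread and the number of tests, and the part of each was not tested. A filter on the mean, also added then, gave 1116. Without attachment replicate 2, 61 of the 153 named genes missed the threshold, and without attachment replicate 3, 54. Apart from the fit with all 9 arrays, no named call changed direction in any alternative. The fit with the replicate block called 1375 genes, 603 higher and 772 lower. The numbers 2 and 3 are shared by both groups, and same-numbered arrays deviated together for number 3 (r = 0.138) and not for number 2 (r = −0.205). With only 2 attachment arrays, the deviations of 1 mirror those of the other, so these values cannot tell whether the groups are paired by number. Low-attachment and FP001 arrays of the same number did deviate together (r = 0.483, 0.309 and 0.231 for numbers 1 to 3), each more than with any other number. The main fit took all arrays as independent. CES1 was called under the block (log2 fold change 3.75, adjusted p = 5.51e-05), and 1 named call was lost, that of CLDN4 (adjusted p = 0.0509).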
